A study of Mus musculus with 6 samples.

Results

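Transcripts of 7 interferon regulatory factors (IRFs) were followed in CD8 T cells of mice bearing B16-OVA melanoma, with and without the IFNγ receptor on those T cells. The 7 genes, *Irf1*, *Irf2*, *Irf3*, *Irf4*, *Irf7*, *Irf8* and *Irf9*, were chosen by name from the 32285 genes of the count tables. Each was read in 4 single-cell RNA sequencing libraries and, within tumors, in cells with 0 or with at least 1 unique molecular identifier (UMI, a tag that marks a single RNA molecule) of *Tcf7*, which encodes the transcription factor TCF1 of stem-like and naive T cells.

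The B16-OVA line is a melanoma line of mice engineered to express ovalbumin. Control mice were CD8-Cre Rosa26Tomato, and CD8-IFNγRKO mice carried CD8-Cre, Rosa26Tomato and IFNgR1flox/flox. Both genotypes thus carried the Cre, driven by CD8α sequences and active in mature CD8 T cells, and the Tomato reporter that Cre switches on, and both were engrafted with the tumor. Male and female mice of 6 to 10 weeks were used in the study. Cells that were CD45+ CD3+ CD8+ Tomato+ were taken by sorting from the tumors and draining lymph nodes (LN) of 3 mice per genotype at day 12 by the labels, where the study's text gives a longer span of harvest days. They were pooled, so that each tissue and genotype is 1 library without a replicate. No statistical test was therefore possible, the intervals given are exact 95% intervals that cover counting error only, and spread between mice is not in them.

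IRFs are transcription factors that share a DNA-binding domain and read GAAA-rich elements in interferon-responsive genes. IFNγ signals through JAK1 and JAK2 to genes with gamma-activated sites (GAS), and *Irf1* is a classic early target. Type I interferon assembles ISGF3, which holds IRF9, and IRF7, made in response to it, amplifies interferon production together with IRF3. IRF4 and IRF8 are lymphoid and myeloid members that bind DNA with partners such as BATF and JUN or PU.1, and in CD8 T cells they are induced by the T cell receptor.

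The kept cells numbered 6638 (control LN), 6726 (CD8-IFNγRKO LN), 7083 (control tumor) and 8628 (CD8-IFNγRKO tumor), with a median of 4050.5, 3862, 6298 and 9397.5 UMIs per cell and 29910822, 28813138, 59129236 and 93842404 UMIs in all. Depth therefore moved with genotype in tumors. *Ifngr1*, the targeted gene, stood at 182 CPM (counts of UMIs per 1000000 UMIs of the library's kept cells) in control LN, 137 in CD8-IFNγRKO LN, 719 in control tumor and 238 in CD8-IFNγRKO tumor, lower with the deletion in both tissues and not absent. Between 169 and 249 barcodes were shared by any pair of libraries, and leaving out cells with a shared barcode moved no count of IRF genes given here by more than 1.5 times. Each UMI marks a molecule once whatever the length of the transcript, so CPM of different genes are set side by side below.

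The first start sites of 3 of the 7 genes have a GAS-type element, TTCNNNGAA, in the 250 bases upstream, searched on both strands in the promoter windows of RefSeq (GRCm38.p6). The same letters are found in 7.02% of 32851 promoter windows of that length. These 3 windows are shown because they hold the letters of a gamma-activated site. Capitals mark the match, and in *Irf2* also an IRF element (GAAA and again GAAA after any pair of bases, found in 2.98% of windows). All 3 genes are on the plus strand, and each sequence ends at the base before the start site.
*Irf1*, chr11:53769764-53770013: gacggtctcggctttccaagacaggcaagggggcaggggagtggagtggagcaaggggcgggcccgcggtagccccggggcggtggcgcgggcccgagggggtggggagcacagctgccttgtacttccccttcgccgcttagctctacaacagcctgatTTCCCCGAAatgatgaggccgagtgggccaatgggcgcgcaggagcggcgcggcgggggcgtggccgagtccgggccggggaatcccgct
*Irf2*, chr8:46739495-46739744: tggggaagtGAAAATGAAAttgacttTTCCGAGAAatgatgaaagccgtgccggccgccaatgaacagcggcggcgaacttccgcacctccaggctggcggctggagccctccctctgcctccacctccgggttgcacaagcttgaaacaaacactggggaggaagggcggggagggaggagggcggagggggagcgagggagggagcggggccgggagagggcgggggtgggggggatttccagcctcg
*Irf8*, chr8:120736108-120736357: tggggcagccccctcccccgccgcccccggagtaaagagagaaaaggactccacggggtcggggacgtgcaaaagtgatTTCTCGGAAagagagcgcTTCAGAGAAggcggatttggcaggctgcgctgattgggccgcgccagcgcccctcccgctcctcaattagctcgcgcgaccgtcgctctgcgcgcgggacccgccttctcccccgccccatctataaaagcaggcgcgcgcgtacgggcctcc
The match in *Irf1*, TTCCCCGAA, lies 90 to 82 bases before the start. *Irf2* has TTCCGAGAA from -224 to -216, beside the IRF element from -241 to -232, and the pair does not overlap. *Irf8* has TTCTCGGAA from -171 to -163 and TTCAGAGAA from -153 to -145. Neither motif was found in the windows of *Irf3*, *Irf4*, *Irf7* and *Irf9* or at second start sites of *Irf1*, *Irf8* and *Irf9*, which leaves 3 of 10 windows with GAS letters and 1 of 10 with the IRF element. A match of letters is a description of the window and does not show that a factor binds there.

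*Irf8* and *Irf1* were the most abundant IRF transcripts of tumor CD8 T cells, while in LN *Irf1* led and *Irf8* was close to undetected. The order in control LN was *Irf1*, *Irf2*, *Irf7*, *Irf9*, *Irf3*, *Irf4* and *Irf8*, and the genes of the CD8-IFNγRKO LN stood in that same order. In both tumors the order was *Irf8*, *Irf1*, *Irf7*, *Irf2*, *Irf9*, *Irf4* and *Irf3*. Intervals of neighbours overlapped for *Irf4* and *Irf8* in control LN and for *Irf7* and *Irf2* in control tumor, and those of all other neighbours were apart. The 7 genes together took 545 CPM in control LN, 536 in CD8-IFNγRKO LN, 1008 in control tumor and 755 in CD8-IFNγRKO tumor. *Irf5*, another gene of the family, had 0.77, 0.38, 14.1 and 12.2 CPM in the same order of libraries.

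**Figure D1:**
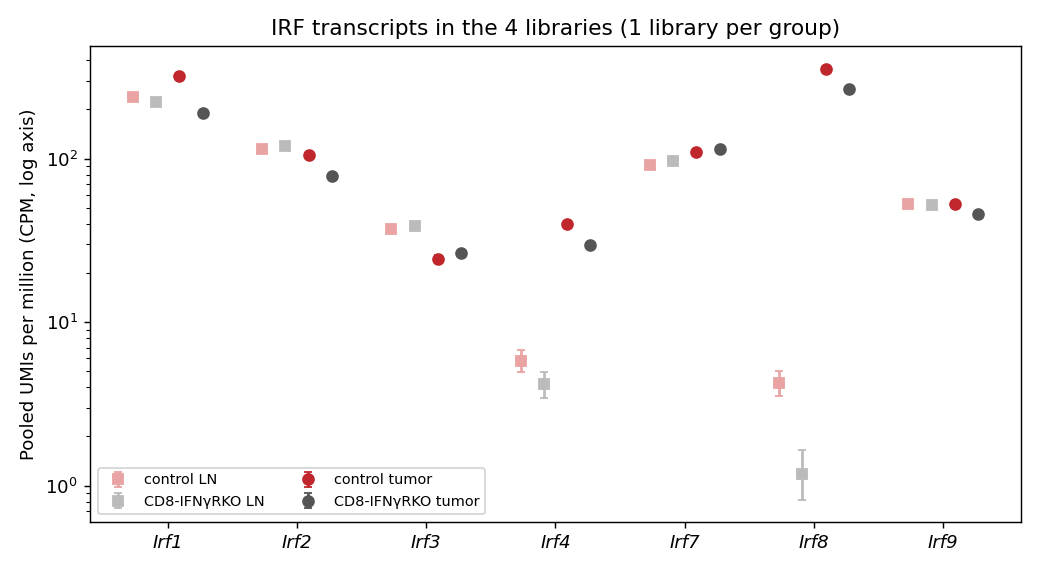
Pooled CPM (log axis) of the 7 IRF genes in control LN, CD8-IFNγRKO LN, control tumor and CD8-IFNγRKO tumor, 1 library each, with exact 95% Poisson intervals for counting error. *Irf8* sits at 4.25 and 1.18 CPM in LN and at 356 and 268 CPM in tumors, and *Irf4* is the only other gene whose tissues stand far apart.

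*Irf1* encodes an activator of antigen-presentation and guanylate-binding protein genes. Its level was 240 CPM in control LN, 223 in CD8-IFNγRKO LN, 319 in control tumor and 191 in CD8-IFNγRKO tumor, so that the control tumor was the highest of the 4 libraries and the CD8-IFNγRKO tumor the lowest. In tumors the log2 ratio of CD8-IFNγRKO over control was -0.74 (-0.77 to -0.71), the lowest of the 7 genes. In LN it was -0.10 (-0.15 to -0.06). The ratios of the 2 tissues differed by -0.64 (-0.70 to -0.58) on the log2 scale. *Irf1* was 1.33 times as high in tumor as in LN in controls (log2 ratio 0.41). That ratio was 0.13 with TCR, ribosomal protein, heat shock and mitochondrial genes left out of the library size, and 0.59 on cells thinned to 1600 UMIs. In CD8-IFNγRKO mice the tumor was lower than the LN (log2 ratio -0.22, -0.27 to -0.18). That last direction did not hold when every cell had equal weight (0.02) and was near 0 on cells thinned to 1600 UMIs (-0.01).

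*Irf2*, which encodes a factor that binds the same elements as IRF1 and is best known as its antagonist, stood at 115 CPM in control LN, 120 in CD8-IFNγRKO LN, 106 in control tumor and 78.7 in CD8-IFNγRKO tumor. The CD8-IFNγRKO tumor was the lowest, and the other 3 libraries lay close together. The log2 ratio of CD8-IFNγRKO over control was -0.43 (-0.48 to -0.38) in tumors and 0.07 (0.00 to 0.14) in LN, a difference between tissues of -0.50 (-0.58 to -0.41). *Irf2* thus had a lower level in the receptor-deficient tumor by less than the log2 ratio of -0.5 used here to count genes. Of the corepressor genes of the IRF2-binding family, *Irf2bp1* and *Irf2bp2* did not go with it by genotype (log2 ratios 0.13 and -0.01 in tumors). *Irf2bpl* was lower by less than *Irf2* (-0.24). All of these corepressor genes were lower in tumor than in LN, *Irf2bp2* with 153 CPM in control LN against 36.9 in control tumor and 160 against 36.6 in CD8-IFNγRKO mice.

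*Irf9*, the DNA-binding subunit of ISGF3, was the most even of the 7, at 52.8, 52.0, 52.5 and 46.1 CPM in control LN, CD8-IFNγRKO LN, control tumor and CD8-IFNγRKO tumor. Its log2 ratio of CD8-IFNγRKO over control was -0.19 (-0.26 to -0.12) in tumors and -0.02 (-0.12 to 0.08) in LN. *Irf7* stood at 91.3, 97.1, 110 and 115 CPM, with log2 ratios by genotype of 0.07 (0.03 to 0.12) in tumors and 0.09 (0.01 to 0.17) in LN. *Irf3*, the constitutive sensor-activated factor, stood at 37.1, 38.7, 24.5 and 26.7 CPM, with log2 ratios by genotype of 0.12 (0.03 to 0.22) and 0.06 (-0.06 to 0.18). By these values, the 3 genes of the type I interferon axis differed by genotype by at most 0.19 on the log2 scale in either tissue. In tumors *Irf7* was at 0.23 when every cell had equal weight. *Irf9* was at -0.24 there without cells that carry a marker of another cell type. *Irf3* was lower in tumor than in LN in both genotypes (log2 ratios -0.60 and -0.54).

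*Irf8* had the widest range. In control LN 127 UMIs were counted in 91 of 6638 cells (4.25 CPM), in CD8-IFNγRKO LN 34 UMIs in 31 of 6726 cells (1.18 CPM), in control tumor 21043 UMIs (356 CPM) and in CD8-IFNγRKO tumor 25149 UMIs (268 CPM). Tumor cells thus had 83.8 times (70.4 to 101) the LN level in controls and 227 times (162 to 328) in CD8-IFNγRKO mice. The latter, a log2 ratio of 7.83, was 6.95 with 1 CPM added to both levels. The LN counts enter both ratios, and their log2 ratio of CD8-IFNγRKO over control was -1.85 (-2.44 to -1.29) at levels below the 10 CPM needed for a gene to be counted. In tumors the log2 ratio by genotype was -0.41 (-0.44 to -0.38). On cells thinned to 1600 UMIs, *Irf8* was seen in 34.0% of control and 28.4% of CD8-IFNγRKO tumor cells, against 0.42% and 0.13% of LN cells. Without thinning the shares were 65.5%, 68.4%, 1.37% and 0.46%, an order of the tumors that goes with their depth.

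*Irf8* is also a gene of dendritic cells, macrophages and B cells, so their markers are given beside it. The 10 macrophage markers summed to 3.41 and 5.07 CPM in LN and 16.9 and 12.6 CPM in tumors, and *Cd68* alone made up 11.5 and 9.59 CPM in tumors. The 10 dendritic cell markers summed to 79.6 and 108 CPM in LN and 17.5 and 18.6 CPM in tumors, and the 8 B cell markers to 241 and 247 CPM in LN and 7.68 and 18.8 CPM in tumors. *Ccr9* and *Ighm* were seen in 12.2% and 29.5% of thinned control LN cells. The dendritic cell marker with the next largest LN shares was *Zbtb46*, at 0.06% in control and 0.07% in CD8-IFNγRKO. Among B cell markers *Cd79b* came next, at 2.61% and 3.07%. *Ccr9* was seen in 0.02% of thinned cells of either tumor. *Adgre1*, *Flt3*, *Clec9a*, *Siglech*, *Cd209a*, *Ms4a1* and *Pax5* had no UMI in thinned cells of any library. Every other dendritic cell marker with a UMI in thinned cells was seen in a larger share of tumor than of LN cells in both genotypes. The lower dendritic sum in tumors thus goes with *Ccr9*, and no sum without it was taken. *Itgax* was seen in 0.02% and 0.01% of thinned LN cells and 1.08% and 1.54% of thinned tumor cells, control first. For *H2-Ab1* the shares were 0.02%, 0%, 0.41% and 0.89%. All these values follow the removal of cells with 3 or more markers of 1 of these types. Without cells carrying a UMI of any macrophage, dendritic or B cell marker that was seen in under 2% of thinned cells of every library, *Irf8* had tumor over LN log2 ratios of 6.37 in controls and 7.93 in CD8-IFNγRKO mice, against 6.39 and 7.83 with all cells.

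*Irf4*, a T cell receptor-induced factor of effector differentiation, stood at 5.82 CPM in control LN, 4.16 in CD8-IFNγRKO LN, 39.9 in control tumor and 29.8 in CD8-IFNγRKO tumor. Both tumors were far above both LN, with log2 ratios of 2.78 (2.56 to 3.01) in controls and 2.84 (2.58 to 3.12) in CD8-IFNγRKO mice, the latter 3.48 on thinned cells. By genotype the log2 ratio was -0.42 (-0.50 to -0.34) in tumors. In LN it was -0.48 (-0.83 to -0.14) from 120 and 174 UMIs, -0.97 on thinned cells and 0.11 without cells that carry a marker of another cell type. The LN direction thus changed under 1 alternative, and both LN levels are below the 10 CPM needed for a gene to be counted. That alternative also leaves out cells with a UMI of *Ighm* or *Ccr9*, seen in 29.5% and 12.2% of thinned control LN cells.

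Counted together, 1 of the 7 IRF genes (*Irf1*) was lower by a log2 ratio of at least 0.5 in the CD8-IFNγRKO tumor and 0 were higher. Among all 7674 genes counted, 5.28% were lower and 8.12% higher by that measure, and 1 of 7 is near that background. The median log2 ratio of the 7 genes was -0.41, against 0.02 over all genes. In LN, 0 of the 5 IRF genes with at least 10 CPM were past the fold in either direction, where 0.485% of all genes were lower and 0.27% higher, and the median was 0.06 against 0.03. Between tissues, *Irf4* and *Irf8* were higher in tumor in both genotypes, 2 of 7, where 29.6% of all genes were higher in controls and 31.1% in CD8-IFNγRKO mice. *Irf7* was past the fold too with equal weight per cell and on thinned cells, at log2 ratios of 0.65 and 0.54 in CD8-IFNγRKO mice, and *Irf1* joined it in controls. *Irf3* was lower in control tumor, 1 of 7 where 25.7% of all genes were, and *Irf2* and *Irf3* were lower in CD8-IFNγRKO tumor, 2 of 7 where 27.6% were. By count the IRF genes were thus close to the background in these 4 comparisons.

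**Figure D2:**
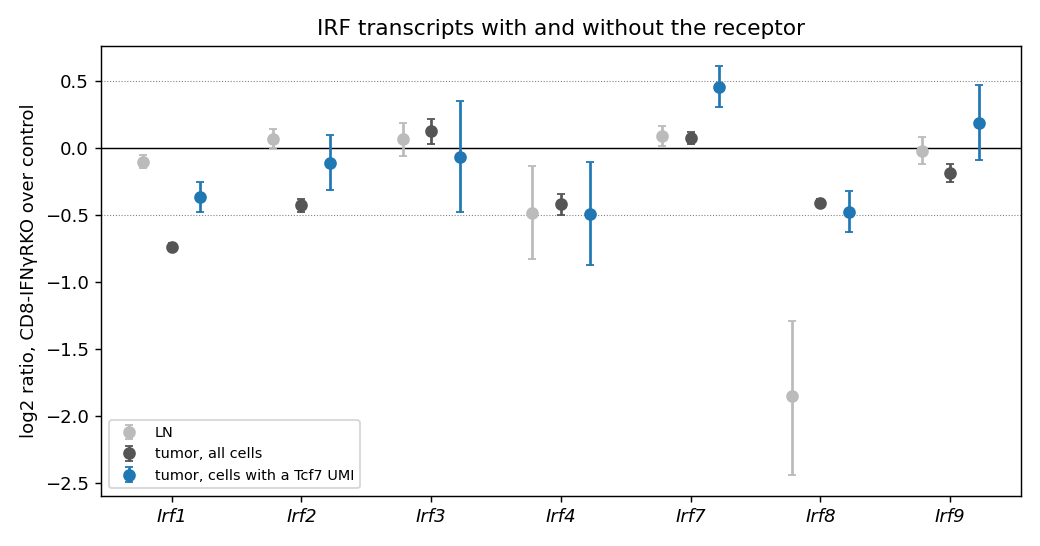
Log2 ratio of CD8-IFNγRKO over control for the 7 IRF genes in LN, in all tumor cells and in tumor cells with a *Tcf7* UMI, with exact 95% conditional binomial intervals for counting error and dotted lines at 0.5 and -0.5. *Irf1* is lowest among the tumor values at -0.74, *Irf2*, *Irf4* and *Irf8* lie between -0.43 and -0.41, and *Irf7* is above 0 in *Tcf7* UMI cells at 0.45.

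The genes around the IRFs in their pathways were read from lists. Of the interferon receptor, JAK and STAT genes, 2 of 9 counted were lower in the CD8-IFNγRKO tumor and 0 higher, with a median log2 ratio of -0.18. The lower genes were *Ifngr1* (-1.60) and *Ifnar1* (-0.77, 86.1 CPM in control and 50.5 in CD8-IFNγRKO tumor), a chain of the type I receptor whose gene was not targeted. *Stat2* was highest of the list (0.32, 14.8 and 18.6 CPM), followed by *Tyk2* (-0.02).

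Of 22 targets of IFNγ and IRF1 counted in tumors, 3 were lower, 0 were higher and the median was -0.21. *Cd274*, which encodes PD-L1, had 49.1 CPM in control and 32.3 in CD8-IFNγRKO tumor (log2 ratio -0.60), and *Irgm2*, an immunity-related GTPase, 10.5 and 6.95 CPM (-0.60). *Psmb9*, an immunoproteasome subunit, was highest of the list (446 and 500 CPM, log2 ratio 0.17), followed by *Gbp7* (106 and 114 CPM, 0.10). In LN, 3 of 21 were lower, 0 were higher and the median was -0.28, with *Gbp2* (80.9 and 47.2 CPM, -0.78) and *Gbp6* (62.8 and 39.5 CPM, -0.67) lowest. The target list was thus below the median of all genes in both tissues, while *Irf1* itself was at -0.74 in tumors and -0.10 in LN.

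Of 17 ISGF3 targets counted in tumors, 5 were higher in CD8-IFNγRKO, 0 were lower and the median was 0.27. *Usp18*, which encodes a negative regulator of type I interferon signaling, had 27.5 CPM in control and 49.4 in CD8-IFNγRKO tumor (log2 ratio 0.85), and *Bst2*, which encodes tetherin, 185 and 301 CPM (0.70). *Ifit1* (-0.25) and *Ifih1* (-0.07) were lowest. In LN the median of the list was 0.04, with 0 of 15 higher and 1 lower. ISGF3 targets and IFNγ targets thus lay on opposite sides of the all-gene median in tumors.

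Of 12 nucleic acid sensing genes upstream of IRF3 and IRF7, 1 was higher in the CD8-IFNγRKO tumor, 0 were lower and the median was -0.02. The DNA sensor gene *Cgas* had 8.79 and 14.8 CPM in control and CD8-IFNγRKO tumor (0.75), followed by the adaptor gene *Mavs* (0.34), and *Irak4* (-0.16) and *Traf6* (-0.14) were lowest. Of 16 partners and regulators of IRF4 and IRF8, 3 were lower and 0 higher, with a median of -0.14. The NF-κB subunit gene *Rel* had 70.4 and 38.1 CPM (-0.88) and the AP-1 gene *Junb* 1528 and 935 CPM (-0.71), while *Eomes* (0.44) and *Jun* (0.38) were highest. These 2 lowest genes are themselves induced by T cell receptor signals. Of 13 immediate early genes, 7 were lower in the CD8-IFNγRKO tumor and 0 higher (median -0.61, *Egr1* at -1.26 and *Nr4a3* at -1.22 lowest), and 7 of 8 heat shock genes were higher (median 0.85). Heat shock genes, which often mark cell handling, were higher by a median of 0.52 in the CD8-IFNγRKO LN too. Their part in the IRF values was not tested.

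Within tumors, IRF genes split by *Tcf7*. A *Tcf7* UMI was found in 372 of 7083 control tumor cells (5.25%) and 835 of 8628 CD8-IFNγRKO tumor cells (9.68%), at a median depth of 4562.5 against 6388 UMIs for cells without it in control and 4511 against 9893 in CD8-IFNγRKO. *Irf7* and *Irf1* were higher and *Irf8* lower in cells with the UMI in both genotypes. In control tumor, 1 of 7 IRF genes was higher past the fold (*Irf7*) where 7.43% of all genes were, and 1 was lower (*Irf8*) where 8.88% were. In CD8-IFNγRKO tumor, 3 of 7 were higher (*Irf1*, *Irf7* and *Irf9*) where 10.7% of all genes were, and 1 was lower (*Irf8*) where 10.2% were. *Irf9* fell short of the fold there with equal weight per cell (0.48), on thinned cells (0.43) and, just, without the deepest cells (0.498). On thinned cells the shares of all genes past the fold were larger, 16.5% higher and 29.9% lower in control and 16.7% and 26.4% in CD8-IFNγRKO, and the counts of IRF genes there were 2 higher in each and 1 and 2 lower.

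*Irf7* stood at 177 CPM in control tumor cells with a *Tcf7* UMI and 106 in those without, and at 242 and 107 CPM in CD8-IFNγRKO. Cells without the UMI were thus level between genotypes (log2 ratio of CD8-IFNγRKO over control 0.01, -0.04 to 0.06), and cells with it were higher in CD8-IFNγRKO (0.45, 0.30 to 0.61). The log2 ratio of *Tcf7* UMI over none was 0.73 (0.60 to 0.87) in control and 1.18 (1.09 to 1.26) in CD8-IFNγRKO, a difference of 0.44 (0.29 to 0.60).

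*Irf1* stood at 393 CPM with and 316 without a *Tcf7* UMI in control tumor and at 305 and 183 CPM in CD8-IFNγRKO tumor. All 4 values were apart by counting error except that cells with the UMI in CD8-IFNγRKO and cells without it in control lay side by side. Its log2 ratio by genotype was -0.37 (-0.48 to -0.26) in cells with the UMI and -0.78 (-0.81 to -0.75) in cells without. The log2 ratio of *Tcf7* UMI over none was 0.32 (0.23 to 0.41) in control and 0.73 (0.66 to 0.81) in CD8-IFNγRKO, and the 2 differed by 0.42 (0.30 to 0.53). On thinned cells and their thinned UMIs they were 0.63 and 0.78, closer together. From all UMIs of those cells they were 0.55 (0.40 to 0.69) and 0.89 (0.79 to 0.99), with intervals apart. The ratios by genotype from thinned UMIs were -0.60 in cells with the *Tcf7* UMI, past the fold, and -0.75 in cells without.

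*Irf8* stood at 208 CPM with and 363 without a *Tcf7* UMI in control tumor and at 149 and 276 CPM in CD8-IFNγRKO tumor, lower with the UMI in both by log2 ratios of -0.81 (-0.93 to -0.69) and -0.89 (-0.99 to -0.79). With classes set on thinned cells, where a deep cell has no greater chance of showing a *Tcf7* UMI, the ratios were -1.57 and -1.82 from all UMIs of those cells and -2.12 and -2.16 from their thinned UMIs. Equal weight per cell gave -1.25 and -1.38. *Irf8* was thus lower in cells with a *Tcf7* UMI under every setting run, by an amount that differed both with the class a cell was given and with the UMIs counted.

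*Irf9* was at 56.4 and 52.3 CPM with and without the UMI in control and at 64.1 and 44.9 CPM in CD8-IFNγRKO, log2 ratios of 0.11 (-0.14 to 0.34) and 0.51 (0.35 to 0.67) that differed by 0.41 (0.13 to 0.69). *Irf2* was at 107 and 106 CPM in control and 99.0 and 77.4 CPM in CD8-IFNγRKO, log2 ratios of 0.01 and 0.35 that differed by 0.34 (0.13 to 0.55). *Irf3* was even, at 27.5 and 24.3 CPM in control and 26.2 and 26.7 CPM in CD8-IFNγRKO. *Irf4* was at 35.5 and 40.2 CPM in control and 25.3 and 30.1 CPM in CD8-IFNγRKO (log2 ratios -0.18 and -0.25), and on thinned cells at a log2 ratio of -0.20 in control and -1.16 in CD8-IFNγRKO, from 11 UMIs in each.

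**Figure D3:**
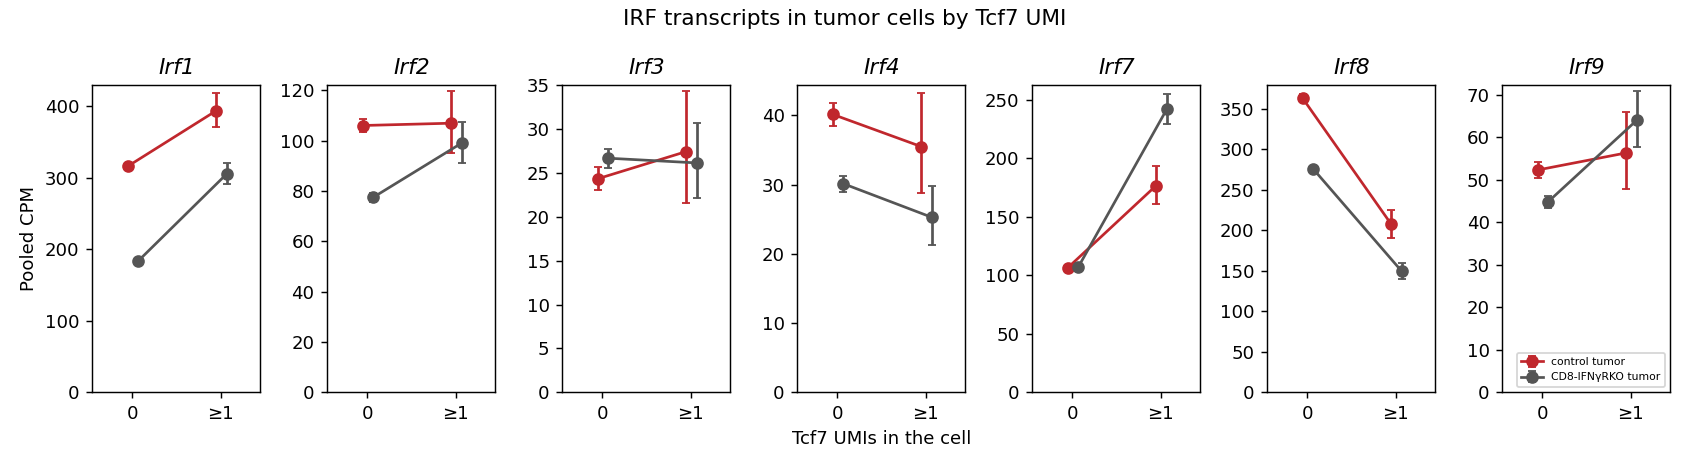
Pooled CPM of each IRF gene in tumor cells with 0 and with at least 1 *Tcf7* UMI, in control and CD8-IFNγRKO tumors (1 library each), with exact 95% Poisson intervals and each vertical axis from 0. Both lines fall for *Irf8* and climb for *Irf1* and *Irf7*, and those of *Irf7* start at 106 and 107 CPM and end at 177 and 242 CPM.

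By genotype, 0 of 7 IRF genes passed the fold in cells with a *Tcf7* UMI, where 5.9% of all genes were higher in CD8-IFNγRKO and 3.37% lower. In cells without the UMI 1 was lower (*Irf1*) and 0 higher, where 5.69% of all genes were lower and 8.32% higher. The count in cells with the UMI was not stable. *Irf4*, *Irf8* and *Irf1*, at log2 ratios of -0.49, -0.48 and -0.37, crossed -0.5 in several of the alternatives. *Irf4* stood at -1.10 with equal weight per cell and at -1.36 on thinned cells, where only 3 of the 7 genes had enough UMIs to be counted. ISGF3 targets had a median of 0.53 in these cells, with 10 of 18 higher in CD8-IFNγRKO and 0 lower, *Usp18* with 37.7 CPM in control and 78.7 in CD8-IFNγRKO (1.06) among them. The median of 23 IFNγ and IRF1 targets there was -0.07, with 0 higher and 1 lower.

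The *Tcf7* UMI cells were also divided by a UMI of *Pdcd1*, which encodes PD-1, after their values had been seen. They held 191 cells with and 181 without it in control and 377 with and 458 without it in CD8-IFNγRKO. Median depths were 8274, 3584, 7974 and 3832.5 UMIs. Depth thus differed between the parts, and the division was not repeated on thinned cells. *Irf8* was at 255 CPM with and 67.6 without *Pdcd1* in control, and at 204 and 44.2 CPM in CD8-IFNγRKO (log2 ratios 1.92, 1.48 to 2.38, and 2.20, 1.88 to 2.54). *Irf7* went the other way, at 140 and 285 CPM in control and 174 and 374 CPM in CD8-IFNγRKO, as did *Irf1*, at 320 and 610 CPM in control and 256 and 401 CPM in CD8-IFNγRKO. *Irf4* and *Irf2* were lower with *Pdcd1* in control (log2 ratios -0.85, -1.47 to -0.22, and -0.43, -0.79 to -0.06). In CD8-IFNγRKO their intervals included 0 (log2 ratios 0.48 and 0.05), as did those of *Irf3* and *Irf9* in both genotypes. With and without *Pdcd1*, the CPM of *Irf7* was higher and those of *Irf1* and *Irf8* lower in CD8-IFNγRKO than in control.

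Cells that carry an interferon-stimulated transcript were compared in all 4 libraries, with classes set on cells thinned to 1600 UMIs and levels taken from all UMIs of those cells. *Ifit3*, an ISGF3 target, had a UMI in 3.14% of thinned control LN cells, 3.16% of CD8-IFNγRKO LN cells, 4.11% of control tumor cells and 5.57% of CD8-IFNγRKO tumor cells. *Irf7* stood at 341 CPM with and 83.1 without it in control LN, 295 and 90.4 in CD8-IFNγRKO LN, 402 and 101 in control tumor, and 352 and 106 in CD8-IFNγRKO tumor. The log2 ratios lay between 1.70 and 2.04, higher with *Ifit3* in all 4 libraries. In tumors the intervals of 1.88 to 2.11 in control and 1.64 to 1.82 in CD8-IFNγRKO were apart, and in LN those of 1.87 to 2.20 and 1.52 to 1.89 overlapped. *Irf9* followed at 0.93, 0.62, 0.51 and 0.69 and *Irf2* at 0.36, 0.36, 0.38 and 0.66.

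*Irf1* was higher with *Ifit3* in both tumors, and in both LN its interval included 0. Its log2 ratio of cells with over cells without an *Ifit3* UMI was -0.02 (-0.22 to 0.17) in control LN and 0.19 (-0.01 to 0.38) in CD8-IFNγRKO LN, against 0.39 (0.28 to 0.50) in control tumor and 0.66 (0.57 to 0.75) in CD8-IFNγRKO tumor. *Irf8* was slightly lower with the *Ifit3* UMI in both tumors, at -0.29 (-0.42 to -0.16) and -0.26 (-0.37 to -0.15).

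*Nr4a1*, an immediate target of T cell receptor signals, had a UMI in 6.33% and 6.91% of LN cells and 27.7% and 16.3% of tumor cells, control first. *Irf4* was higher with it in every library, at 11.0 against 5.51 CPM in control LN, 9.03 against 3.77 in CD8-IFNγRKO LN, 48.1 against 36.2 in control tumor and 36.8 against 28.6 in CD8-IFNγRKO tumor. Its LN ratios rest on 21 and 18 UMIs in cells with *Nr4a1*. *Irf8* in control LN was at 11.5 CPM with and 3.71 without *Nr4a1* (log2 ratio 1.64, 0.90 to 2.31, from 22 and 103 UMIs), and in tumors it was slightly higher with it (0.14 and 0.20). *Irf1* was higher with it by 0.17, 0.26 and 0.34 on the log2 scale in control LN, control tumor and CD8-IFNγRKO tumor, and in CD8-IFNγRKO LN its log2 ratio was 0.06 (-0.08 to 0.19).

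In tumor cells with a UMI of *Mki67*, a marker of cycling cells, *Irf7* was lower, at 76.8 against 116 CPM in control and 93.4 against 121 CPM in CD8-IFNγRKO (log2 ratios -0.59 and -0.37). *Irf8* was lower by less (-0.17 and -0.25), as were *Irf1* (-0.18 and -0.06) and *Irf2* (-0.18 and -0.10). *Irf9* was at -0.31 in control and -0.004 in CD8-IFNγRKO. Such cells were deeper, with medians of 11715 against 6575 UMIs in control and 12475 against 9164 in CD8-IFNγRKO, and made up 10.7% and 17.9% of thinned cells. In LN only 11 and 21 cells had the UMI, and no value is given.

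**Figure D4:**
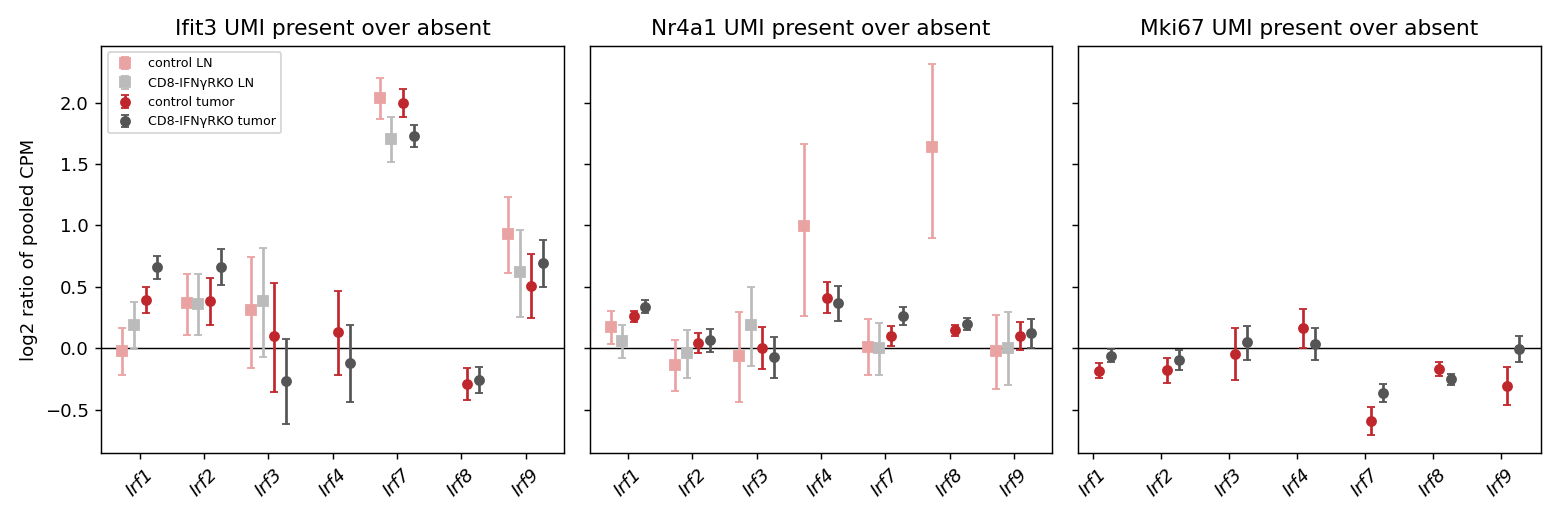
Log2 ratio of pooled CPM in cells with over cells without a UMI of *Ifit3*, *Nr4a1* or *Mki67*, for each IRF gene and library, with exact 95% intervals for counting error. Classes were set on cells thinned to 1600 UMIs, and points with under 20 UMIs in the marked cells are left out, as are the LN for *Mki67*. *Irf7* stands between 1.70 and 2.04 for *Ifit3* in all 4 libraries.

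T cell clones gave a view of the spread within each tumor. Cells were joined to the T cell receptor libraries of the same tumors, where 60.4% of control and 68.8% of CD8-IFNγRKO cells had an alpha and a beta chain. The other cells are in no clone, and whether their IRF levels differ was not tested. By these chains, 10 control clones and 21 CD8-IFNγRKO clones had at least 50 cells, a minimum set after the data had been seen. They held 3337 and 5225 cells, the largest 1104 and 1463. Clones share mice and a library, so they are no replicates and received no test. *Irf1* ranged from 161 to 401 CPM (median 297) over control clones and from 125 to 335 CPM (median 186) over CD8-IFNγRKO clones, and 19 of the 21 CD8-IFNγRKO clones lay below the control median. *Irf2* ranged from 90.2 to 134 CPM (median 106) and from 59.4 to 160 CPM (median 73.0), and 17 of the 21 lay below the lowest control clone. Median depth ran from 4525 to 7152 UMIs over control clones and from 3211 to 14776.5 over CD8-IFNγRKO clones. The CD8-IFNγRKO clones not below that control clone had *Irf2* at 107, 152, 102 and 160 CPM and depths of 7138.5, 3211, 8574.5 and 3340 UMIs. All 17 lower clones were deeper than every control clone, the shallowest of them at 7679 UMIs with 72.2 CPM. The only CD8-IFNγRKO clone within the control range of depth was that of 7138.5 UMIs. The part of depth in these clone values was not tested.

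*Irf8* ranged from 211 to 483 CPM (median 352) over control clones and from 12.5 to 397 CPM (median 243) over CD8-IFNγRKO clones, 18 of which lay below the control median. *Irf4* had medians of 40.9 and 26.3 CPM, with 20 of the 21 below the control median. *Irf3* ranged from 19.9 to 35.9 CPM and from 20.6 to 40.7 CPM, with 10 of 21 below the control median, and *Irf7* and *Irf9* medians of 116 and 105 CPM and of 53.6 and 44.4 CPM, with 14 of 21 below it in each. The genes that were lower in the pooled CD8-IFNγRKO tumor were also lower in most of its larger clones. These clones are part of that pool, so their counts are a description and no separate evidence. *Irf7*, slightly higher in the pool (log2 ratio 0.07), had most clones below the control median too. Ranges overlapped those of control clones for all 7 genes.

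A pair of CD8-IFNγRKO clones stood apart. Their 149 and 71 cells had 43.1 and 12.5 CPM of *Irf8*, where the lowest of the other 19 clones had 128. *Irf1* was at 332 and 335 CPM, *Irf2* at 152 and 160 CPM and *Irf7* at 305 and 276 CPM in these clones. *Irf3* was at 39.9 and 40.7 CPM and *Irf9* at 97.4 and 72.0 CPM. For each of these genes they were the 2 highest values of the 21. *Irf4* was at 19.2 and 9.40 CPM. Their median depth was 3211 and 3340 UMIs per cell, the lowest of the 21, *Tcf7* was at 38.3 and 12.5 CPM and *Pdcd1* at 650 and 783 CPM. *Irf8* low with *Irf1* and *Irf7* high was also seen in *Tcf7* UMI cells without a *Pdcd1* UMI, a likeness of these IRF levels only. Among the 21 clones, the *Tcf7* level of 38.3 CPM was the highest, and that of 12.5 CPM lay within the other clones, which reached 17.9 CPM. All kept CD8-IFNγRKO tumor cells had 21.5 CPM. The 355 CPM of CD8-IFNγRKO tumor cells with a *Tcf7* UMI is of cells chosen by that UMI, so it is no measure for a clone. Their *Pdcd1* lay within the 431 to 803 CPM of the other clones. The cells of these clones were not divided by a *Pdcd1* UMI.

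**Figure D5:**
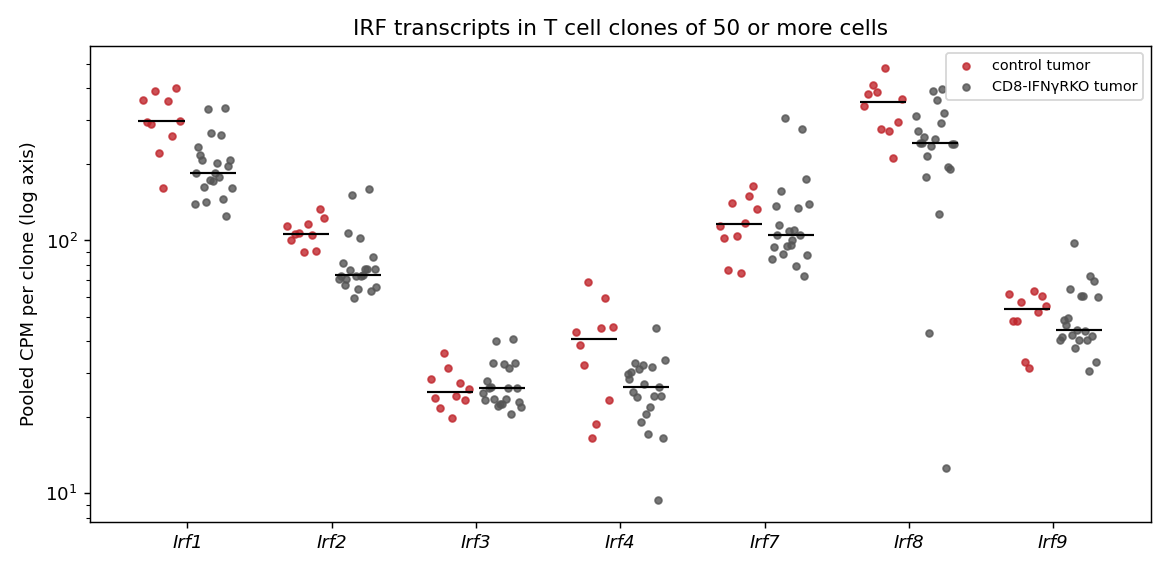
Pooled CPM (log axis) of each IRF gene in every T cell clone of at least 50 cells, 10 in control tumor and 21 in CD8-IFNγRKO tumor, with clones placed from largest to smallest within a group and a bar at the median. For *Irf2*, 17 of 21 CD8-IFNγRKO clones lie below all control clones, and for *Irf8* a pair of CD8-IFNγRKO clones lies at 43.1 and 12.5 CPM. Most CD8-IFNγRKO clones, and all 17 of those low for *Irf2*, have a greater median depth than every control clone.

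Clone size carried the same division. Cells of clones with at least 2 cells (4097 in control and 5569 in CD8-IFNγRKO tumor) were set against cells alone in their clone (182 and 364). Median depths were 6252 against 4041 UMIs in control and 10362 against 3997.5 in CD8-IFNγRKO. Depth thus differed between these parts too, and the division was not repeated on thinned cells. *Irf8* was at 353 CPM in expanded and 116 in single cells of control, and at 270 and 69.3 CPM in CD8-IFNγRKO. *Irf7* was at 109 and 263 CPM in control and 104 and 369 CPM in CD8-IFNγRKO, and *Irf1* at 316 and 475 CPM and at 182 and 387 CPM. *Irf4* was at 38.6 and 51.6 CPM in control and at 28.5 and 13.7 CPM in CD8-IFNγRKO. Its log2 ratio of expanded over single cells was -0.42 (-0.84 to 0.03) in control, so counting error left that direction unsettled. In CD8-IFNγRKO expanded cells were higher, with an interval of 0.48 to 1.70 that was apart from that of control. *Tcf7* stood at 5.08 against 354 CPM and 5.75 against 473 CPM, so clone size and *Tcf7* level went together. How many cells the divisions by clone size and by *Tcf7* UMI have in common was not counted.

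Across single cells thinned to 1600 UMIs, *Irf7* had the only partners with a Pearson's r of at least 0.1 in all 4 libraries, among 5831 genes compared. Ranked by mean r, *Isg15* (r from 0.18 to 0.27), *Ifit3* (0.15 to 0.22) and *Ifit1* (0.13 to 0.23) came first. *Rtp4* (0.13 to 0.19) and *Zbp1* (0.10 to 0.18) followed. These are 5 interferon-stimulated genes, and only the first 5 partners of each IRF gene were kept. Pairs of IRF genes among themselves had r from -0.05 to 0.08 over 21 pairs in the 4 libraries, near 0 at this depth. In the 2 tumors, a choice made after the LN levels of *Irf8* had been seen, the genes with the highest r for *Irf8* were *Prf1* (0.18 and 0.16), which encodes perforin, *Tnfrsf9* (0.16 and 0.16), *Ccl4* (0.14 and 0.15), *Gzmb* (0.15 and 0.14) and *Ccl3* (0.15 and 0.14). For *Irf1* they were *Junb* (0.15 and 0.16), *Btg1* (0.16 and 0.13) and *Nfkbia* (0.15 and 0.11). These r are across cells of 1 library each, which share that library, and are descriptions of weak relations in sparse counts.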

How the data were processed

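CD8+ Tomato+ cells of tumors and draining LN were measured in 4 single-cell libraries of transcript 5′ ends, and T cell receptors in 2 tumor libraries. The authors aligned reads to mm10 (Cell Ranger 6.0.0) and deposited counts of UMIs per gene and barcode without normalization, and TCR contigs with their own counts of reads and UMIs. A barcode was kept if it had *Cd2*, *Cd8a* and *Cd8b1* UMIs, between 200 and 6000 genes, a mitochondrial share of 3% or less and a top gene of 20% or less of its UMIs. Cells with 3 or more markers of macrophages, dendritic cells or B cells were then removed (3 to 20 per library). Doublets were not called. UMIs were summed over cells as CPM with scipy 1.17.1 and numpy 2.4.6 in Python 3.11.15 and plotted with matplotlib 3.10.9, with exact 95% Poisson intervals for CPM, conditional binomial intervals for ratios and normal approximations for differences of log2 ratios. The intervals for ratios were tested on simulated Poisson counts. These check the calculation only, since they hold no spread between cells, clones or mice. Precision follows the number of UMIs. A gene was counted with 10 CPM in either group and 100 UMIs over both, and past the fold at a log2 ratio of 0.5 or -0.5. Cells were thinned to 1600 UMIs where marker classes are compared, which left out 41 to 701 cells per library. A clone was the same alpha and beta chains. The IRF genes, gene lists and comparisons were chosen with earlier results of these data known. From each list, the 2 highest and 2 lowest ratios in tumors are named, and other genes of lists were named after their values were seen. The alternatives were other library sizes, 1 CPM added, equal weight per cell, thinning, cell filters, 50 CPM, and 2 or more *Tcf7* UMIs. Some genes that meet these rules are not reported here, and they stay in the counts of the lists.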

Additional observations from a re-analysis of the deposited data

How the results depend on the processing

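No paired analysis was possible because each group is 1 library, and no replicate could be left out. No log2 ratio of an IRF gene past the fold changed sign under any alternative, and 421 of 532 alternative values stayed within the interval of the value reported. With every cell given equal weight, 2 genes were lower in CD8-IFNγRKO tumor (*Irf1*, *Irf4*), 4 higher in control tumor than LN (*Irf1*, *Irf4*, *Irf7*, *Irf8*), 1 lower in CD8-IFNγRKO tumor than LN (*Irf3*), 2 higher with a *Tcf7* UMI in control (*Irf1*, *Irf7*), 2 lower with it in CD8-IFNγRKO (*Irf4*, *Irf8*), and 2 lower by genotype in *Tcf7* UMI cells (*Irf1*, *Irf4*), where 4.84%, 28.9%, 25.1%, 11.3%, 17.5% and 4.59% of all genes were. On thinned cells, 4 were higher in control tumor than LN (*Irf1*, *Irf4*, *Irf7*, *Irf8*), 2 higher with a *Tcf7* UMI in control (*Irf1*, *Irf7*) and 2 lower with it in CD8-IFNγRKO (*Irf4*, *Irf8*), while 0 were lower in tumor than LN in either genotype and 1 of 3 counted was lower by genotype in *Tcf7* UMI cells (*Irf1*). The shares of all genes in these thinned counts were 28.9%, 16.5%, 26.4%, 25.1% and 25.8% (control and CD8-IFNγRKO), and 4.48%. Under both settings 3 genes were higher in CD8-IFNγRKO tumor than LN (*Irf4*, *Irf7*, *Irf8*) and 2 higher with a *Tcf7* UMI in CD8-IFNγRKO (*Irf1*, *Irf7*), *Irf9* no longer among them. The counts of IRF genes that follow are given without the shares of all genes, so they are not read against a background. With no filter on cells, 2 were higher with a *Tcf7* UMI in control and 1 lower by genotype in *Tcf7* UMI cells (*Irf4*). Without cells carrying any marker of another cell type, 1 was lower in CD8-IFNγRKO tumor than LN (*Irf2*), 1 higher (*Irf7*) and 1 lower (*Irf8*) by genotype in *Tcf7* UMI cells, and 2 lower in cells without the UMI (*Irf1*, *Irf2*). *Tcf7* UMI cells had 2 lower genes without the deepest cells (*Irf1*, *Irf4*), 2 when 2 or more *Tcf7* UMIs were asked for (*Irf4*, *Irf8*) and 1 without cells with a well separated marker (*Irf4*), an alternative added after seeing the data. A minimum of 50 CPM left 1 gene higher (*Irf8*) and 0 lower in control tumor than LN, and 1 higher (*Irf8*) and 1 lower (*Irf2*) in CD8-IFNγRKO mice, since fewer genes were counted, and it gives no other log2 ratio of a gene. With TCR, ribosomal protein, heat shock and mitochondrial genes left out of the library size, the median tumor over LN ratio of all genes went from 0.04 in control and 0.05 in CD8-IFNγRKO mice to -0.28 and -0.24, and that of *Irf7* from 0.26 and 0.25 to -0.02 and -0.01. The causes of the other shifts were not tested.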
